A study of Saccharomyces cerevisiae with 4 samples.

Results

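The 3 nuclear RNA polymerases of budding yeast are each built from a set of subunits, and transcripts of these subunits were followed through the loss of Snf2 and of its SnAC domain. Members were the genes whose symbol in the array annotation begins with RPA, RPB or RPC followed by a digit, together with RPO21, RPO26, RPO31 and RET1. This gave 31 genes of 5547 named on the array, each with 1 probe. Of these, 7 belong to polymerase I only, 7 to polymerase II only, 10 to polymerase III only, 2 to polymerases I and III, and 5 to all 3 enzymes.

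Poly(A) RNA was compared on spotted 2-colour DNA arrays, in 1 sample for each of 4 groups. The snf2 null (Δsnf2 in the BY4741 background) was hybridised against wild-type BY4741, and BY4741 was also hybridised against itself. The SnAC deletion (strain PSY3, lacking the SnAC domain of Snf2) was hybridised against Snf2-2FLAG (strain PSY2, wild type with a FLAG-tagged Snf2), which was likewise hybridised against itself. Every culture was grown at 25 C in YPD (rich medium with glucose) and harvested at an optical density of 0.8. The number of clones or cultures behind each sample is not stated.

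Polymerase I makes the large ribosomal RNA precursor, polymerase II makes messenger RNA, and polymerase III makes transfer RNA and the small ribosomal RNA that polymerase I does not. Genes for the subunits of polymerases I and III belong, with ribosome biogenesis genes, to the growth-regulated set that yeast raises in rich medium and lowers under stress. Snf2 is the ATPase of SWI/SNF, a remodeler that slides and evicts nucleosomes at promoters, and SnAC is a conserved domain of that ATPase. All of the subunit genes are themselves transcribed by polymerase II, so every value below reports messenger RNA.

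Each value is the deposited log ratio of the named strain to its wild type, read as log2, minus the median of its own array, so that 0 stands for the typical feature of that array. BY4741 and Snf2-2FLAG, where a value is given for them, stand for these self-hybridisations. With 1 array per group no value has a replicate error and no difference was tested. The self-hybridisations give the spread seen without a genotype difference: the central 95% of features ran from -0.31 to 0.30 in BY4741 and from -0.45 to 0.51 in Snf2-2FLAG. Array medians before centring were 0.003 in the null, -0.125 in BY4741, -0.393 in the SnAC deletion and 0.104 in Snf2-2FLAG, and centring removes any change common to all transcripts. SNF2 itself read -2.14 in the null and -0.19 in BY4741, and the other 2 arrays hold no value for it. Members had values for 31, 30, 30 and 31 genes on the null, BY4741, SnAC deletion and Snf2-2FLAG arrays. A ratio holds no information on the level of a transcript, so values compare strains and not subunits' abundance.

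Subunit transcripts were slightly lower in the null, and the size of this difference varied with the enzyme. Of 31 members, 28 lay below the array median in the null, against 4 of 30 in BY4741, beside 49.9% and 49.8% of all features. The median over members was -0.235 in the null and 0.181 in BY4741, positions below which lay 18.8% and 89.6% of all features. A ratio of at least 5 to 4, which is 0.322 log2, was taken as a small difference, and 10 of 31 members were lower by that size in the null, or 32.3%, beside 12.2% of all features. None was higher, beside 12.8% of all features. In BY4741, 3 of 30 members were higher by 0.322 log2, or 10%, beside 1.96% of all features, and 0 were lower, beside 2.38%. At 1.5-fold 0 members were lower in the null, beside 3.27% of features, 0 were higher in BY4741, beside 0.155%, and 2 of 31 were higher in Snf2-2FLAG, beside 1.59%. No member reached 2-fold on any array. At that size 1.26% of features were higher and 1.59% lower in the null, and 0.0344% higher and 0.0517% lower in BY4741.

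In the SnAC deletion the same genes lay closer to the middle of the array. Below the array median were 23 of 30 members, against 8 of 31 in Snf2-2FLAG, beside 49.9% of all features on each array. The median over members was -0.068 in the SnAC deletion and 0.149 in Snf2-2FLAG, positions below which lay 36.2% and 74.9% of all features. No member differed by 0.322 log2 in the SnAC deletion in either direction, beside 9.66% of features higher and 6.69% lower. On the Snf2-2FLAG array 7 of 31 were higher by that size, or 22.6%, beside 8.01% of features, and 0 were lower, beside 7.50%. At 2-fold, 0.866% of features were higher and 1.19% lower in the SnAC deletion, and 0.0882% higher and 0.212% lower in Snf2-2FLAG. The whole SnAC deletion array was displaced before centring, and as deposited all 30 measured members were below 0, beside 93.2% of features, and 26 were lower by 0.322 log2, beside 62.9% of features. In Snf2-2FLAG 13 of 31 were higher by that size as deposited, beside 16.0% of features. Every statement on sign below holds after centring, and as deposited no member or related list had a value or median above 0 in the SnAC deletion.

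**Figure D1:**
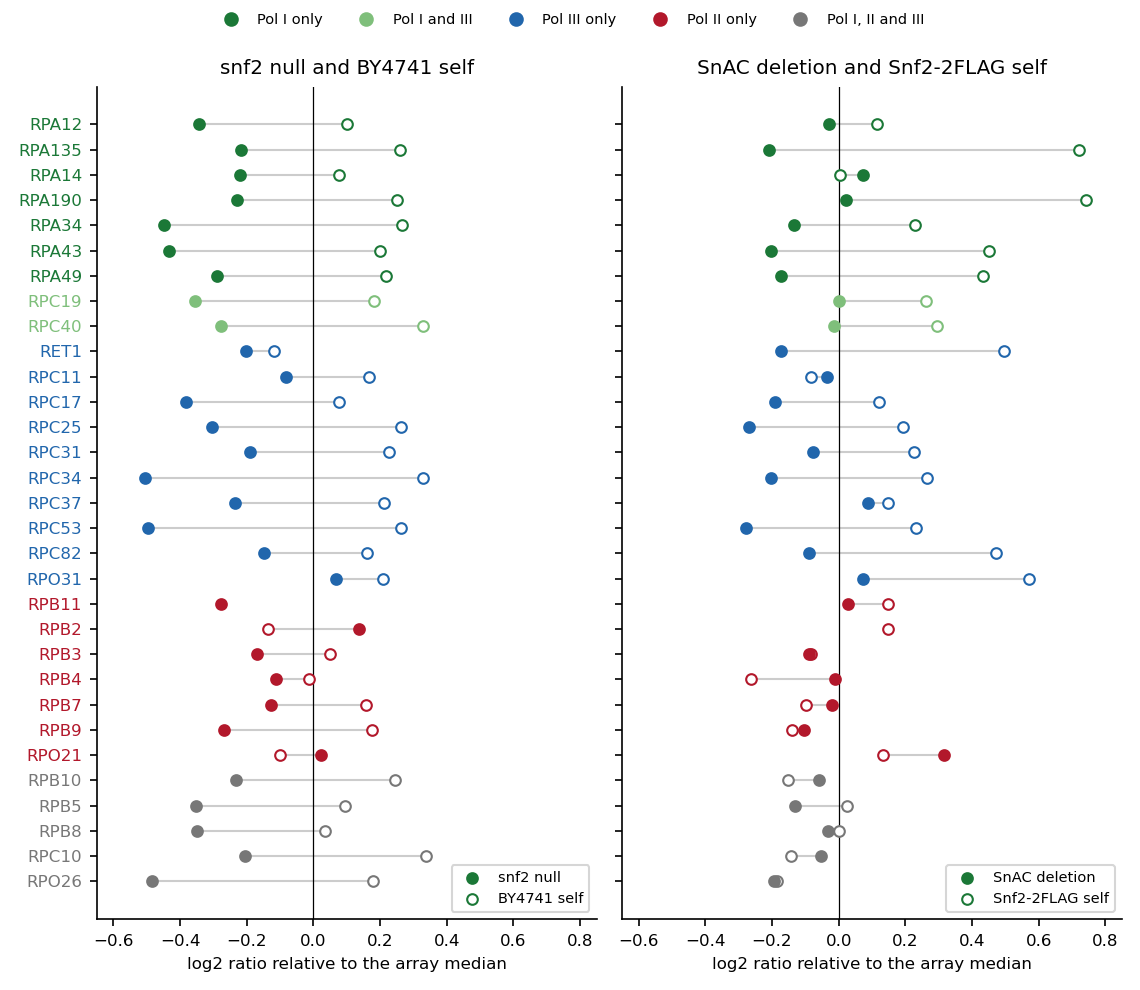
Each row is a polymerase subunit gene and the horizontal axis is its log2 ratio relative to the array median. The left panel sets the snf2 null (filled) beside BY4741 (open) and the right panel the SnAC deletion (filled) beside Snf2-2FLAG (open), coloured by enzyme, and 28 of 30 pairs on the left have the null below BY4741.

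Among subunits found only in polymerase I, all 7 lay below the array median in the null and all 7 above it in BY4741, and these ranges did not overlap. All 7 were thus lower in the null than in BY4741, beside 49.5% of all features. Below the array median lay 49.9% of all features in the null and 49.8% in BY4741. Their median was -0.289 in the null against 0.219 in BY4741, and -0.133 in the SnAC deletion against 0.434 in Snf2-2FLAG. RPA190 (YOR341W), the largest catalytic subunit, read -0.23 in the null and 0.25 in BY4741, and 0.021 in the SnAC deletion and 0.74 in Snf2-2FLAG. RPA135 (YPR010C), which completes the active centre, read -0.22 in the null and 0.26 in BY4741, and -0.21 in the SnAC deletion and 0.72 in Snf2-2FLAG. On the Snf2-2FLAG array 99.4% and 99.3% of features lay below these 2, the highest of all members there, while both lay between RPA49 and RPC31 in the null.

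The dimer of RPA49 and RPA34, which resembles the general factor TFIIF, was below the array median in the null for both partners, and more so for RPA34. RPA34 (YJL148W) read -0.45 in the null and 0.27 in BY4741, and -0.13 in the SnAC deletion and 0.23 in Snf2-2FLAG. RPA49 (YNL248C) read -0.29 in the null and 0.22 in BY4741, and -0.17 in the SnAC deletion and 0.43 in Snf2-2FLAG. Among polymerase I subunits RPA34 was the lowest in the null, and it was also the highest of the 7 in BY4741.

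The stalk pair and the RNA cleavage subunit complete the enzyme. RPA43 (YOR340C), the stalk subunit that contacts the initiation factor Rrn3, read -0.43 in the null and 0.20 in BY4741, and -0.20 in the SnAC deletion and 0.45 in Snf2-2FLAG. Its partner RPA14 (YDR156W) read -0.22 in the null and 0.077 in BY4741, and 0.073 in the SnAC deletion and 0.004 in Snf2-2FLAG. RPA12 (YJR063W), needed for transcript cleavage, read -0.34 in the null and 0.10 in BY4741, and -0.029 in the SnAC deletion and 0.11 in Snf2-2FLAG. RPA34, RPA43 and RPA12 were the 3 of 7 polymerase I subunits lower by 0.322 log2 in the null, or 42.9%, beside 12.2% of all features. RPA14 had the smallest distance from 0 among the 7 on both self-hybridisations.

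RPC40 and RPC19 form the alpha-like dimer on which polymerases I and III assemble. RPC40 (YPR110C) read -0.28 in the null and 0.33 in BY4741, and -0.014 in the SnAC deletion and 0.29 in Snf2-2FLAG. RPC19 (YNL113W) read -0.35 in the null and 0.18 in BY4741, and 0.001 in the SnAC deletion and 0.26 in Snf2-2FLAG. Both were lower in the null than in BY4741 by more than 0.5 log2, at -0.61 and -0.54, yet both lay within 0.02 of the array median in the SnAC deletion.

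Polymerase III subunits were below the array median in the null in 9 of 10 cases, beside 49.9% of all features. They were below BY4741 in all 10, beside 49.5% of all features. Their median was -0.218 in the null against 0.21 in BY4741, and -0.132 in the SnAC deletion against 0.229 in Snf2-2FLAG. The spread among them was wide in the null, from -0.51 for RPC34 to 0.067 for RPO31, and held the whole polymerase I range within it.

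RPC34 and RPC53 were the 2 lowest of all members in the null. RPC34 (YNR003C), which recruits the enzyme through the TFIIIB subunit Brf1, read -0.51 in the null and 0.33 in BY4741, and -0.20 in the SnAC deletion and 0.27 in Snf2-2FLAG. RPC82 (YPR190C), its partner in the initiation trimer, read -0.15 in the null and 0.16 in BY4741, and -0.090 in the SnAC deletion and 0.47 in Snf2-2FLAG. RPC31 (YNL151C), the last member of that trimer, read -0.19 in the null and 0.23 in BY4741, and -0.076 in the SnAC deletion and 0.225 in Snf2-2FLAG. Of this trimer only RPC34 was past 0.322 log2 in the null, and its 3 members spanned 0.36 log2 there.

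RPC53 and RPC37 are the TFIIF-like dimer of polymerase III, active in termination and reinitiation. RPC53 (YDL150W) read -0.50 in the null and 0.26 in BY4741, and -0.28 in the SnAC deletion and 0.23 in Snf2-2FLAG. RPC37 (YKR025W) read -0.235 in the null and 0.21 in BY4741, and 0.087 in the SnAC deletion and 0.15 in Snf2-2FLAG. RPC53 was the lowest of the 30 measured members in the SnAC deletion, and RPC37 was 1 of 7 members above 0 there.

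The catalytic pair of polymerase III lay above the median of its class in the null. RPO31 (YOR116C), the largest subunit, read 0.067 in the null and 0.21 in BY4741, and 0.073 in the SnAC deletion and 0.57 in Snf2-2FLAG. RET1 (YOR207C), the second largest, read -0.20 in the null and -0.12 in BY4741, and -0.17 in the SnAC deletion and 0.495 in Snf2-2FLAG. RPO31 was the only polymerase III subunit above the array median in the null, and RET1 was the only one below it in BY4741.

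The stalk and cleavage subunits of polymerase III were the remaining 3. RPC25 (YKL144C) of the stalk read -0.30 in the null and 0.26 in BY4741, and -0.27 in the SnAC deletion and 0.19 in Snf2-2FLAG. Its partner RPC17 (YJL011C) read -0.38 in the null and 0.076 in BY4741, and -0.19 in the SnAC deletion and 0.12 in Snf2-2FLAG. RPC11 (YDR045C), which cleaves the transcript and acts in termination, read -0.081 in the null and 0.17 in BY4741, and -0.036 in the SnAC deletion and -0.083 in Snf2-2FLAG. RPC17 was past 0.322 log2 in the null, RPC25 fell just inside that limit, and RPC11 was among the members nearest to 0 there.

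Subunits found only in polymerase II stood nearest to the middle of the array in the null. Their median was -0.127 in the null against 0.0195 in BY4741, and -0.0155 in the SnAC deletion against -0.083 in Snf2-2FLAG, and 0 of 7 passed 0.322 log2 in the null, beside 12.2% of features lower and 12.8% higher. The medians of BY4741 and Snf2-2FLAG change sign when the values are not centred, to -0.106 and 0.021, and that of the SnAC deletion turns to 0.057 when Snf2-2FLAG is subtracted. Of the 7, 5 lay above the range of polymerase I subunits in the null, and RPB9 and RPB11 lay inside it.

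RPO21 (YDL140C), which encodes Rpb1 with its repeated carboxy-terminal domain, read 0.022 in the null and -0.10 in BY4741, and 0.317 in the SnAC deletion and 0.13 in Snf2-2FLAG. RPB2 (YOR151C), the second largest subunit, read 0.14 in the null, -0.14 in BY4741 and 0.15 in Snf2-2FLAG, with no value in the SnAC deletion. These were the only 2 members whose value in the null exceeded that in BY4741. RPO21 was also the highest member in the SnAC deletion, where 90.1% of features lay below it, close to but not past 0.322 log2.

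The smaller polymerase II subunits were all below the array median in the null. RPB3 (YIL021W), an alpha-like subunit, read -0.17 in the null and 0.051 in BY4741, and -0.089 in the SnAC deletion and -0.083 in Snf2-2FLAG. Its partner RPB11 (YOL005C) read -0.28 in the null, 0.028 in the SnAC deletion and 0.15 in Snf2-2FLAG, with no value in BY4741. RPB9 (YGL070C), which acts in transcript fidelity, read -0.27 in the null and 0.175 in BY4741, and -0.10 in the SnAC deletion and -0.14 in Snf2-2FLAG. RPB9 and RPB11 were thus the lowest of this enzyme in the null, while in the SnAC deletion they lay on opposite sides of 0.

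The dissociable stalk of polymerase II was close to 0 in both mutants. RPB4 (YJL140W) read -0.11 in the null and -0.012 in BY4741, and -0.012 in the SnAC deletion and -0.26 in Snf2-2FLAG. RPB7 (YDR404C) read -0.13 in the null and 0.16 in BY4741, and -0.019 in the SnAC deletion and -0.097 in Snf2-2FLAG. Both partners were higher in the SnAC deletion than in Snf2-2FLAG, by 0.25 and 0.078, and RPB4 was the lowest member of all on the Snf2-2FLAG array.

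Subunits common to all 3 enzymes followed polymerases I and III in the null but not on the Snf2-2FLAG array. Their median was -0.349 in the null against 0.179 in BY4741, with all 5 below the array median in the null and all 5 above it in BY4741. All 5 were thus lower in the null than in BY4741, beside 49.5% of all features. In the SnAC deletion their median was -0.06 against -0.144 in Snf2-2FLAG. The common subunits thus had a lower median than any class of polymerases I and III on that self-hybridisation. RPO26 (YPR187W), which encodes Rpb6, read -0.48 in the null and 0.18 in BY4741, and -0.195 in the SnAC deletion and -0.18 in Snf2-2FLAG. RPB5 (YBR154C), of the lower jaw, read -0.35 in the null and 0.094 in BY4741, and -0.13 in the SnAC deletion and 0.026 in Snf2-2FLAG. RPB8 (YOR224C) read -0.35 in the null and 0.034 in BY4741, and -0.033 in the SnAC deletion and 0.002 in Snf2-2FLAG. These 3 of the 5 were lower by 0.322 log2 in the null, or 60%, beside 12.2% of all features. The difference between SnAC deletion and Snf2-2FLAG was within 0.2 for each of the 3.

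The remaining common subunits are small zinc-binding proteins. RPB10 (YOR210W) read -0.23 in the null and 0.25 in BY4741, and -0.060 in the SnAC deletion and -0.15 in Snf2-2FLAG. RPC10 (YHR143W-A), also known as Rpb12, read -0.205 in the null and 0.34 in BY4741, and -0.053 in the SnAC deletion and -0.14 in Snf2-2FLAG. RPC10 had the highest value of all members in BY4741, above 98.4% of features, and a value below the array median on the other self-hybridisation.

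**Figure D2:**
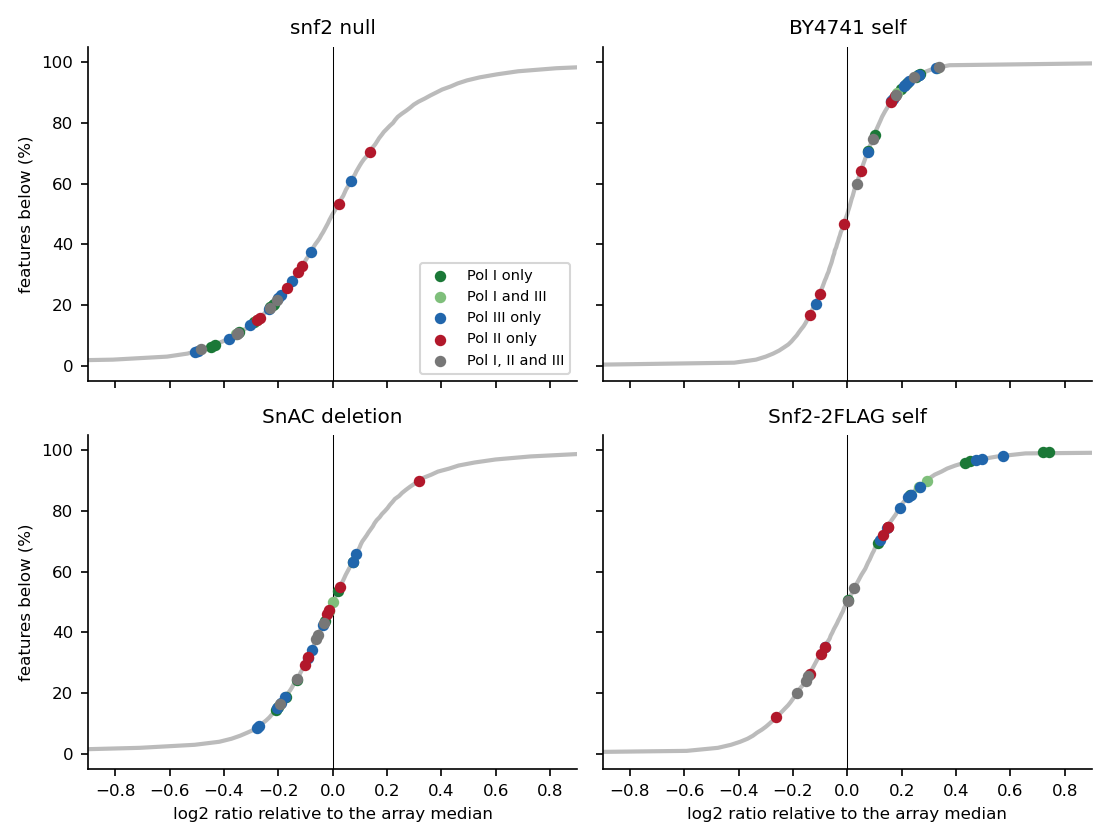
For each array the grey curve gives the percent of all features (vertical axis) below a log2 ratio relative to the array median (horizontal axis), drawn from -0.9 to 0.9, and the points are polymerase subunits coloured by enzyme. In the snf2 null the points crowd the lower part of the curve, with a median at 18.8% of features, whereas in BY4741 the median lies at 89.6%.

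Medians of all subunit classes lay on opposite sides of 0 in the null and in BY4741, so that subtracting the self-hybridisation enlarged them. In the SnAC deletion and Snf2-2FLAG this held for the classes of polymerases I and III. The common subunits, at -0.06 and -0.144, and those of polymerase II only, at -0.0155 and -0.083, lay below 0 on both of these arrays. Of 30 members measured on both arrays, 28 were lower in the null than in BY4741, or 93.3%, beside 49.5% of all features. By at least 0.322 log2 20 of the 30 were lower on this scale, or 66.7%, beside 19.2% of features, and 0 were higher, beside 17.8%. For the SnAC deletion 22 of 30 members were lower than in Snf2-2FLAG, or 73.3%, beside 49.7% of all features. There 11 of 30 were lower by 0.322 log2, or 36.7%, beside 17.4% of features, and 0 were higher, beside 19.7%. All 11 were subunits of polymerase I only or polymerase III only. RPA135 had the lowest of these differences, at -0.93, and RPC34 the lowest in the null, at -0.83. The displacement of these genes on arrays without a genotype difference has no given source here, and its part in the mutant values was not tested.

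The subtraction also separated the classes differently in the mutants. In the null minus BY4741, medians were -0.481 for polymerase I, -0.433 for polymerase III, -0.477 for the common subunits and -0.16 for polymerase II. In the SnAC deletion minus Snf2-2FLAG, they were -0.607, -0.466, -0.011 and 0.057 in the same order. The common subunits thus stood with polymerases I and III in the null and with polymerase II in the SnAC deletion. Their SnAC deletion values of -0.195 to -0.033 before subtraction were matched by values of -0.18 to 0.026 in Snf2-2FLAG. The difference between mutants was not tested, as each had 1 array.

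Subunits at the same place in the 3 enzymes allow the enzymes to be compared position by position. Of 7 positions, polymerase I was below polymerase II at all 7 in the null, with polymerase I minus polymerase II between -0.353 and -0.075 and a median of -0.109. Polymerase III was below polymerase II at 5 of 7, with RPO31 above RPO21 and RPC11 above RPB9. The alpha-like positions of polymerases I and III are filled by the same 2 genes, so these comparisons are not separate. In the SnAC deletion polymerase I was below polymerase II at 3 of 6 measured positions and above it at 3, and polymerase III was below at 4 of 6. With Snf2-2FLAG subtracted, polymerase I was below at 6 of 6, with a median difference of -0.2415. Polymerase III was then below at 5 of 6, with a median difference of -0.421. In the null with BY4741 subtracted, each was below at 5 of 6, with medians of -0.367 and -0.318.

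The self-hybridisations gave the reverse order at most of these positions. In Snf2-2FLAG polymerase I exceeded polymerase II at 7 of 7 positions, by a median of 0.377, and polymerase III exceeded it at 7 of 7, by a median of 0.346. In BY4741 each exceeded it at 5 of 6. At the TFIIF-like position, where the polymerase II counterparts are the separate factors TFG1 and TFG2, RPA49 and RPA34 read -0.29 and -0.45 in the null, RPC37 and RPC53 read -0.235 and -0.50, and TFG1 and TFG2 read -0.075 and -0.017. TFG1 and TFG2 read -0.048 and -0.013 in BY4741.

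**Figure D3:**
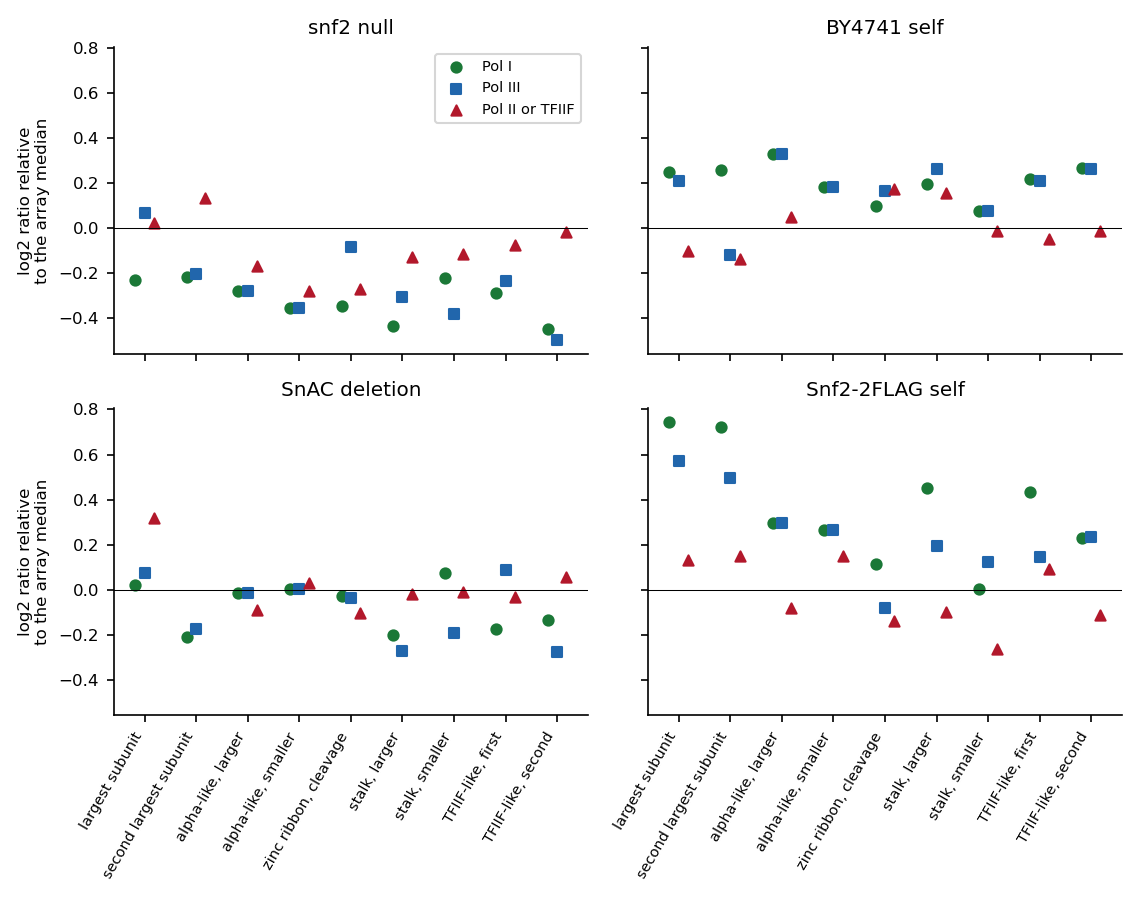
The panels show the 4 arrays, with structural positions along the horizontal axis and the log2 ratio relative to the array median on the vertical axis, for polymerase I (circles), polymerase III (squares) and polymerase II or TFIIF (triangles). RPC40 and RPC19 are drawn for both polymerases I and III, missing values are left out, and polymerase I lies below polymerase II at all 7 subunit positions in the snf2 null and above it at all 7 in Snf2-2FLAG.

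Within each enzyme, the 2 largest subunits were set beside the smaller ones, a grouping made after the values were seen. In the null the 2 largest had a median of -0.224 in polymerase I, -0.067 in polymerase III and 0.079 in polymerase II, against -0.343, -0.269 and -0.168 for the other subunits of those enzymes. In Snf2-2FLAG the 2 largest had medians of 0.732, 0.534 and 0.141, against 0.23, 0.209 and -0.097. Their medians were thus above those of the other subunits of each enzyme on both arrays, but single values overlapped. In the null, RPA14 was above RPA190, and RPC82, RPC31 and RPC11 were above RET1, and in Snf2-2FLAG RPB11 was above RPO21. In BY4741 the order of medians was the same for polymerase I, at 0.256 against 0.199, but opposite in polymerase III, at 0.046 against 0.22, and in polymerase II, at -0.119 against 0.105. The order in the SnAC deletion was that of the null before subtraction. There polymerase I had -0.0945 against -0.133, polymerase III -0.0505 against -0.1405, and polymerase II 0.317 for RPO21 alone against -0.019. For polymerases I and III these gaps were smaller than the median difference between probes of the same gene on that array, 0.135. With Snf2-2FLAG subtracted the order reversed in polymerase I, at -0.8265 against -0.363, and in polymerase III, at -0.584 against -0.387. In polymerase II it stayed, at 0.185 for RPO21 alone against 0.036. With BY4741 subtracted the null kept its order in each enzyme, though narrowly in polymerase I, at -0.4795 against -0.508.

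The values of the subunits in the mutants were set beside each other, and which mutant had the lower value depended on the scale. Over the 30 members measured in both, Pearson's r was 0.66 and Spearman's rho 0.53, beside 0.88 and 0.77 over 5790 features. With each self-hybridisation subtracted they were 0.345 and 0.38 over 29 members, beside 0.79 and 0.65 over 5134 features. These coefficients run across genes on 1 array per mutant and only describe the arrays. Below 0 in both mutants were 23 members, and above 0 in both were 2 (RPO21 and RPO31). The other 5 lay below 0 in the null and above it in the SnAC deletion. Of the 5790 features, 2261 were below 0 in both, 2274 above it in both and 1234 on opposite sides. Relative to their arrays all 30 were lower in the null than in the SnAC deletion, beside 52.7% of 5790 features, with a null minus SnAC deletion difference between -0.355 for RPC19 and -0.006 for RPO31. As deposited 0 of the 30 were lower in the null, beside 1.95% of features, since the SnAC deletion array lay lower as a whole. With the self-hybridisations subtracted 22 of 29 were lower in the null, beside 50.0% of features, and 3 of 7 subunits of polymerase I only were. RPA135, RET1 and RPC25 differed by -0.007, -0.027 and -0.033 relative to their arrays. The near equality of the first 2 was lost on subtraction, where RPA135 read -0.478 in the null against -0.931 in the SnAC deletion, and RET1 read -0.084 in the null against -0.669 in the SnAC deletion.

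**Figure D4:**
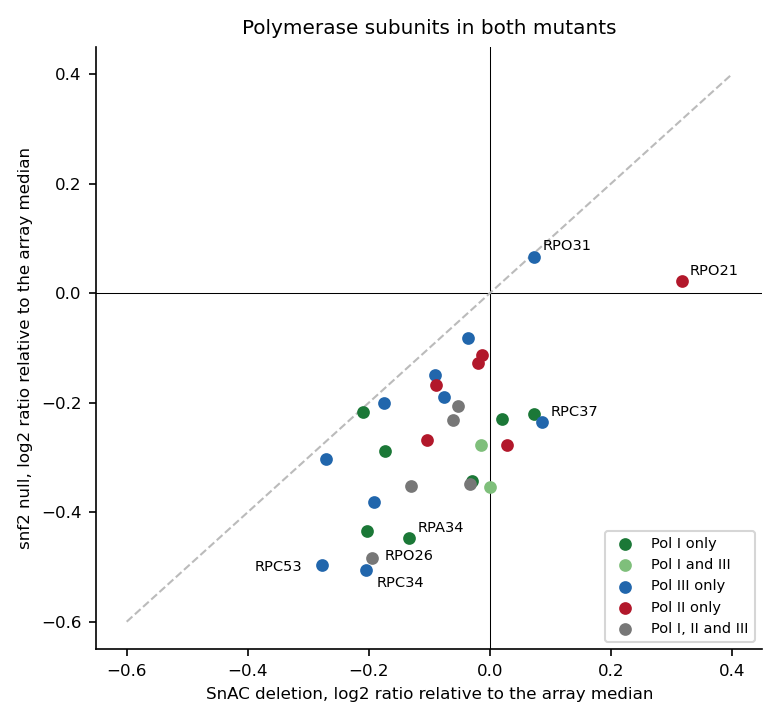
Each point is 1 of the 30 polymerase subunits measured in both mutants, with the snf2 null on the vertical axis and the SnAC deletion on the horizontal axis, both as log2 ratio relative to the array median. The dashed line marks equal values, and all points lie below it on this centred scale, with RPO31 nearest to it and RPO21 farthest to the right.

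The factors that bring polymerase I to its genes lay nearer to the middle of the array than its subunits. Of 9 polymerase I factors, 0 passed 0.322 log2 in the null, beside 12.2% of features lower, and their median was -0.149 in the null against 0.072 in BY4741, where 8 had a value. RRN7, of the core factor, read -0.28 in the null and -0.22 in BY4741, and -0.26 in the SnAC deletion and 0.28 in Snf2-2FLAG. UAF30, of the upstream activating factor, read -0.215 in the null and 0.085 in BY4741, and -0.30 in the SnAC deletion and 0.053 in Snf2-2FLAG. Choosing these 2 by the mean of both mutants favours genes of 1 sign in both. In the null 7 of the 9 lay below the array median, beside 49.9% of features, and RRN5 and RRN6 lay above it, at 0.28 and 0.16. With BY4741 subtracted RRN5 read 0.47, the only 1 of 8 past 0.322 log2, or 12.5%, beside 17.8% of features higher and 19.2% lower. In the SnAC deletion 8 of the 9 lay below the array median, beside 49.9% of features, though none by 0.322 log2, beside 6.69% of features. With Snf2-2FLAG subtracted 5 of the 9 were lower by that size, or 55.6%, beside 17.4% of features, and the median was -0.357.

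Polymerase III factors, a list that also holds the repressor gene MAF1, had medians above 0 in both mutants, on the other side from the polymerase III subunits. These medians were 0.0075 and 0.09 after the self-hybridisations were subtracted, and that of the SnAC deletion was -0.339 as deposited. The median over 10 genes was 0.067 in the null against -0.0045 in BY4741, with 1 higher and 1 lower by 0.322 log2 in the null, or 10% each way, near the 12.8% higher and 12.2% lower of all features. TFC3, the TFIIIC subunit that binds the inner promoter element, read 0.35 in the null and -0.24 in BY4741, and 0.21 in the SnAC deletion and -0.028 in Snf2-2FLAG. PZF1, which encodes TFIIIA for the small ribosomal RNA genes, read -0.34 in the null, 0.084 in BY4741 and -0.13 in the SnAC deletion, with no value in Snf2-2FLAG. TFC3 and PZF1 lay on opposite sides of 0 in both mutants.

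General factors of polymerase II, listed here together with the elongation factors DST1, SPT4 and SPT5, were centred near 0 on all 4 arrays. The median over 20 genes (18 in Snf2-2FLAG) was -0.041 in the null against -0.0225 in BY4741, and -0.023 in the SnAC deletion against -0.0475 in Snf2-2FLAG. On any array 0 passed 0.322 log2, beside 1.96% to 12.8% of all features in a single direction. As deposited these medians follow the displacement of each array, at -0.038, -0.148, -0.416 and 0.0565 in that order. With BY4741 subtracted 2 of 20 were lower by 0.322 log2 in the null, or 10%, beside 19.2% of features, and 0 higher, beside 17.8%. With Snf2-2FLAG subtracted 2 of 18 were higher by that size in the SnAC deletion, or 11.1%, beside 19.7%, and 1 lower, or 5.56%, beside 17.4%. The 2 genes farthest from 0 in the mean of both mutants, a choice that favours genes of 1 sign in both, were lower in both. Others lay above 0 in both, such as CCL1 and TFB3, at 0.041 and 0.044 in the null. In the SnAC deletion CCL1 and TFB3 read 0.198 and 0.191, farther from 0 than SUA7. SUA7, which encodes TFIIB, read -0.29 in the null and 0.066 in BY4741, and -0.17 in the SnAC deletion and 0.042 in Snf2-2FLAG. RAD3, a TFIIH helicase, read -0.18 in the null and 0.11 in BY4741, and -0.245 in the SnAC deletion and 0.24 in Snf2-2FLAG. SPT15, the TATA-binding protein used by all 3 enzymes, read -0.17 in the null and 0.18 in BY4741, and 0.005 in the SnAC deletion and 0.010 in Snf2-2FLAG.

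Genes for assembling and importing the polymerases had medians close to 0 in both mutants and above 0 on both self-hybridisations. The median of 7 such genes, of which 6 were measured in BY4741 and 6 in Snf2-2FLAG, was 0.046 in the null against 0.197 in BY4741, and 0.013 in the SnAC deletion against 0.178 in Snf2-2FLAG. Both mutant medians turned below 0 when the self-hybridisation was subtracted, to -0.192 and -0.204, and that of the SnAC deletion did so as deposited, at -0.38. RBA50, needed for polymerase II assembly, read 0.30 in the null and 0.042 in BY4741, and 0.335 in the SnAC deletion and 0.16 in Snf2-2FLAG. GPN3, a GTPase of nuclear import of the enzyme, read -0.21 in the null and 0.24 in BY4741, and -0.11 in the SnAC deletion and 0.18 in Snf2-2FLAG. RBA50 was the only gene of this list past 0.322 log2 in a mutant, higher in the SnAC deletion, or 14.3% of 7, beside 9.66% of features.

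Ribosome biogenesis genes had medians of the same sign as polymerase I on all 4 arrays. Over 39 of them (38 in Snf2-2FLAG) the median was -0.3 in the null against 0.253 in BY4741, and -0.239 in the SnAC deletion against 0.547 in Snf2-2FLAG. Lower by 0.322 log2 in the null were 17 of 39, or 43.6%, beside 12.2% of all features, and in the SnAC deletion 8 of 39, or 20.5%, beside 6.69%, where 0 of the 30 polymerase subunits were. All 39 lay below the array median in the null and all 39 above it in BY4741. All 39 were thus lower in the null than in BY4741, beside 49.5% of all features. NHP2, a pseudouridylation factor, read -0.53 in the null and 0.29 in BY4741, and -0.31 in the SnAC deletion and -0.11 in Snf2-2FLAG. NOG2, a GTPase of large subunit maturation, read -0.35 in the null and 0.31 in BY4741, and -0.54 in the SnAC deletion and 0.47 in Snf2-2FLAG.

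Ribosomal protein genes, by contrast, parted from the polymerases I and III on the Snf2-2FLAG array. Their median was -0.444 in the null against 0.116 in BY4741, and -0.204 in the SnAC deletion against -0.0915 in Snf2-2FLAG. RPS22A read -0.75 in the null and 0.18 in BY4741, and -0.29 in the SnAC deletion and -0.12 in Snf2-2FLAG. RPS29A read -0.57 in the null and 0.019 in BY4741, and -0.42 in the SnAC deletion and -0.48 in Snf2-2FLAG. The common polymerase subunits had the same signs of median as the ribosomal protein genes on all 4 arrays, as did the subunits found only in polymerase II, while polymerases I and III had those of ribosome biogenesis. For the common subunits this depends on centring. As deposited the medians of the ribosomal protein genes were -0.009 in BY4741 and 0.0125 in Snf2-2FLAG. Those of the common subunits were then of opposite sign, at 0.054 and -0.04. Those of the subunits found only in polymerase II kept the same signs, at -0.106 and 0.021.

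**Figure D5:**
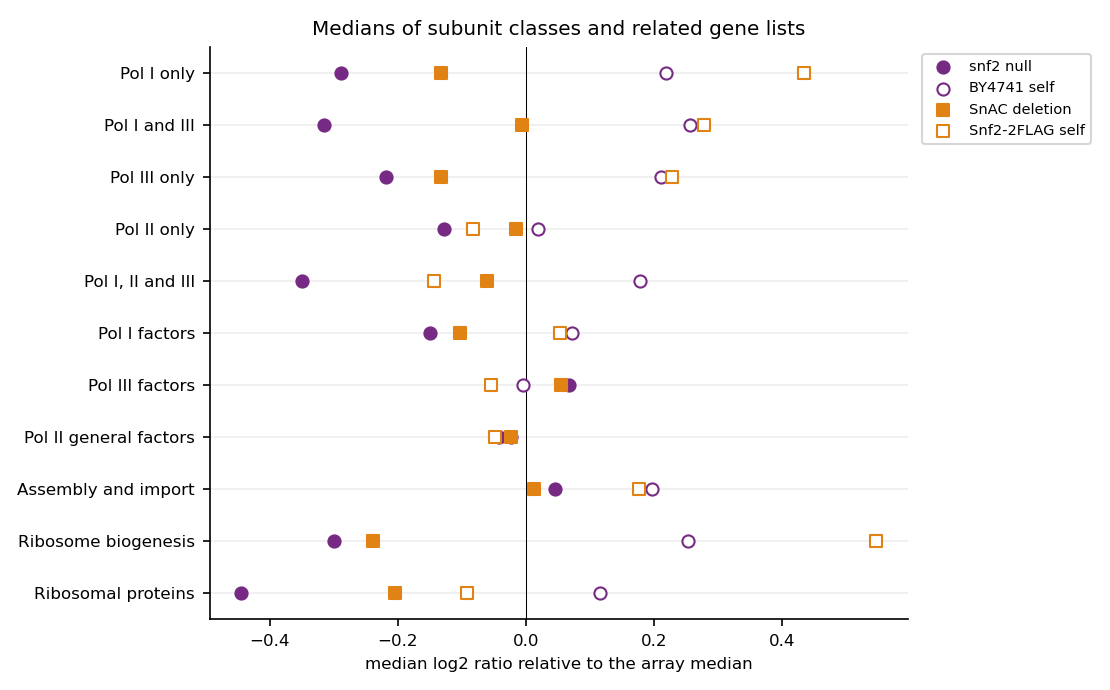
Rows are subunit classes and related gene lists, and the horizontal axis is the median over the measured genes of the log2 ratio relative to the array median, for the snf2 null and BY4741 (filled and open circles) and the SnAC deletion and Snf2-2FLAG (filled and open squares). Ribosome biogenesis and polymerase I have the highest medians in Snf2-2FLAG, at 0.547 and 0.434, and general factors of polymerase II stay within 0.05 of 0 on every array after centring.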

How the data were processed

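The deposited values are log ratios, 1 per probe and sample, from 2-colour arrays for which the labels name 2 scans of opposite dye orientation per sample. They were read as log2 ratios of channel 1 (the named strain) to channel 2 (its wild type), per the labels. The log base, the centring, the background correction and the way the authors combined the scans are not stated, and no signal level is given. With 1 sample in each of 4 groups, the number of arrays limits the precision and no test was possible.

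The array's annotation names 1 gene for 5578 of 6226 probes and none for 648. All 31 members matched the R64 yeast gene table by gene ID, which served for names and neighbours. Probes of a gene were averaged (30 genes), giving 6195 features, and each array was centred on its median over features. Every member had a single probe. Differences of 0.322 log2 (a ratio of 5 to 4), 1.5-fold and 2-fold were counted beside all features. Named genes are all members, the targeted gene, TFG1 and TFG2, and the 2 genes of each related list with the greatest distance from 0 in the mean of both mutants. RRN5, RRN6, CCL1 and TFB3, which lay above 0 in the null, were added after the values were seen. Members, lists and folds were chosen with earlier results of these data known. Python 3.11.15, numpy 2.4.6, pandas 2.3.3, scipy 1.17.1 and matplotlib 3.10.9 were used, and the procedure was tested on simulated data.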

Additional observations from a re-analysis of the deposited data

Results flagged for a closer look

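Medians of 2 subunit classes lay on opposite sides of 0 on the 2 self-hybridisations, although neither array compared genotypes. The subunits found only in polymerase II had a median of -0.083 in Snf2-2FLAG and 0.0195 in BY4741. The subunits common to all 3 enzymes had a median of -0.144 in Snf2-2FLAG and 0.179 in BY4741. These differences were not tested, since each strain had 1 such array.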

How the results depend on the processing

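Centring on the mean, using features measured on all 4 arrays and keeping probes singly moved no class median by more than the median difference between probes of the same gene, which was 0.085 in the null, 0.107 in BY4741, 0.135 in the SnAC deletion and 0.126 in Snf2-2FLAG. Subtracting BY4741 moved the medians of the null to -0.447 for all members, -0.481 for polymerase I, -0.572 for the subunits of polymerases I and III, -0.433 for polymerase III and -0.477 for the common subunits. Subtracting Snf2-2FLAG moved those of the SnAC deletion to -0.209, -0.607, -0.285 and -0.466 for the first 4 of these. Members lower by 0.322 log2 then numbered 20 (null) and 11 (SnAC deletion). Without centring, the SnAC deletion medians were -0.461 for all members, -0.526 for polymerase I, -0.3995 for polymerases I and III, -0.525 for polymerase III, -0.409 for polymerase II and -0.453 for the common subunits, and 26 members were lower by 0.322 log2, beside 62.9% of features. This follows from the displaced median of that array. The BY4741 medians without centring were 0.056, 0.094, 0.131, 0.0855, -0.106 and 0.054 in the same order, and 0 members were higher by 0.322 log2, beside 0.448% of features. In Snf2-2FLAG 13 were then higher, beside 16.0% of features. At 1.5-fold 0 members were lower in the null and 0 higher in BY4741, while 2 were higher in Snf2-2FLAG, and at 2-fold these 3 counts were 0. No replicate could be left out. No paired analysis was possible because each group held 1 sample.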

Other observations

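The genes beside the polymerase subunits were compared with them, using the order of protein-coding genes in the R64 table. Of 60 neighbours that are not subunits, 58 measured in the null gave a median of -0.0325 and 56 measured in BY4741 gave one of 0.0425. In the null 33 of the 58 were below the array median, or 56.9%, near the 49.9% of all features. In the SnAC deletion the median of the neighbours was -0.0275, against 0.0195 in Snf2-2FLAG. With the self-hybridisation subtracted, the neighbours had a median of -0.1795 in the null, near the -0.1595 of subunits of polymerase II only, and -0.04 in the SnAC deletion. On that scale 55.4% of the neighbours were below 0 in the null, beside 49.5% of all features. The shares were 53.7% and 49.7% in the SnAC deletion. The 19 neighbours transcribed away from a subunit gene, on the opposite strand from the side of its start, gave medians of -0.022 for the null and -0.0405 for BY4741. RPA43 and RPA190 are neighbours of this kind to each other, at -0.43 and -0.23 in the null, against 0.20 and 0.25 in BY4741. RPO26 has the TFIIIA gene PZF1 as such a neighbour, at -0.48 and -0.34 in the null, against 0.18 and 0.084 in BY4741. RPC53 has SAS10, a ribosome biogenesis gene, on that side, at -0.50 and -0.27 in the null, against 0.26 and 0.074 in BY4741. RPC82 has QCR2, of the respiratory chain, on that side, and these read -0.15 and 0.78 in the null, against 0.16 and -0.31 in BY4741, so neighbours with a shared start region could also differ in sign. All 4 pairs were picked after their values were seen.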
